A study of Oryza sativa Japonica Group with 6 samples.

Results

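The miR2275 family was followed through 3 stages of pollen development in the anthers of autotetraploid and diploid rice. Of the 486 miRNAs in the deposited tables, 6 were taken by name: osa-miR2275d, osa-MIR2275c-p3, osa-miR2275c_R-2, osa-miR2275a_1ss15AG, zma-miR2275b-3p_1ss22AG and mes-miR2275. They were selected on their values in these same libraries, as a family in which stage courses differed between the ploidies, so every level and ratio of them given here is a description and carries no test. The tables hold 12 names of the family, and the 6 names that were not selected are described beside the members.

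In grasses, miR2275 is a 22 nt miRNA of the anther. It guides the cleavage of long non-coding PHAS transcripts, which are then copied into double-stranded RNA and diced by a Dicer-like enzyme of the reproductive organs into phased 24 nt siRNAs, called phasiRNAs. These accumulate in the tapetum and the meiocytes around meiosis, while miR2118, another 22 nt miRNA, starts an earlier class of 21 nt phasiRNAs.

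Taichung65-4x, an autotetraploid line made from Taichung65-2x with colchicine and then selfed for many generations, was set against that diploid. Anthers were taken at pre-meiotic interphase (PMA), meiosis (MA) and the single microspore stage (SCP), and 1 small RNA library was made from the total RNA of each of the 6 groups. Florets of Taichung65-4x measured 3.50 to 4.00 mm at PMA, 4.80 to 5.30 mm at MA and 6.50 to 7.00 mm at SCP, and those of Taichung65-2x measured 2.50 to 3.00, 3.80 to 4.30 and 5.50 to 6.00 mm at the same stages. Anthers were 0.90 to 1.40, 1.45 to 1.95 and 1.50 to 2.05 mm long in Taichung65-4x, against 0.75 to 0.85, 1.00 to 1.35 and 1.40 to 1.55 mm in Taichung65-2x. Taichung65-4x is 1 line, the sources used here do not state how many plants a library stands for, and ploidy cannot be told apart from any other difference between those libraries. These are whole anthers, so fewer cells of a type and less RNA per cell cannot be told apart.

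The members are printed as the tables give them, with T for U, from the 5′ end, so that the seeds, the arms and the single-base differences can be read beside the values. Capitals mark the seed, bases 2 to 8.
osa-miR2275d: cTTGTTTTtctccaatatctca
osa-MIR2275c-p3: aTTGTTTTtctccaatatctca
osa-miR2275a_1ss15AG: tTTGGTTTcctccagtatctca
mes-miR2275: tTTGGTTTcctccaatatctta
zma-miR2275b-3p_1ss22AG: tTCAGTTTcctctaatatctcg
osa-miR2275c_R-2: aGAATTGGaggaaaacaaact

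The first 5 of these sequences are 22 nt long, the length of the trigger, and osa-miR2275c_R-2 is 21 nt long. The 22 nt members hold the same base at 13 of their positions, and their longest shared run is tatct at positions 16 to 20, counted from 1 at the 5′ end. osa-miR2275d and osa-MIR2275c-p3 share the seed TTGTTTT and differ at 1 base, C1A. osa-miR2275a_1ss15AG and mes-miR2275 share the seed TTGGTTT and differ by G15A and C21T. zma-miR2275b-3p_1ss22AG has the seed TCAGTTT, which 1 listed miRNA outside the family also has, and it differs from osa-miR2275d at 7 positions. In the tables' names the changes A15G and A22G set a read apart from the miRBase entry it was matched to. The endings p3, p5, 3p and 5p name the arm of the hairpin. osa-MIR2275c-p3 is the opposite arm of the hairpin that gives osa-miR2275c_R-2, and the computed duplex of that pair had 18 of the 21 bases of osa-miR2275c_R-2 paired at -20.00 kcal/mol. With osa-miR2275d in place of osa-MIR2275c-p3, 18 bases were paired at -20.20 kcal/mol, so the letters alone do not separate these partners.

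Levels are the authors' normalised values, which are copy numbers multiplied by 1 factor per library, and 1 read was worth 1.36, 0.906 and 0.797 units in PMA-4x, MA-4x and SCP-4x, against 1.35, 0.944 and 0.888 in PMA-2x, MA-2x and SCP-2x. The listed values summed to 129557, 86888 and 61725 at PMA, MA and SCP of Taichung65-4x and to 129895, 106731 and 77448 in Taichung65-2x, so the table as a whole falls with stage. The tables list 441 miRNAs for Taichung65-4x and 402 for Taichung65-2x, with 357 in both, and of the 6 members 5 are in both. mes-miR2275 is not listed for Taichung65-4x. Many values are multiples of 0.5 read, as when reads are split between loci, and near-identical members may share reads.

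osa-miR2275d, a mature miRNA of rice, differed in its course between the ploidies. Its normalised value was 1113 at PMA, 1106 at MA and 1546 at SCP in Taichung65-4x. In Taichung65-2x it was 2417 at PMA, 687 at MA and 362 at SCP. As deposited, the diploid libraries hold both the highest and the lowest value, whereas under each of the 3 other scalings described with the stage counts SCP-4x is the highest library and SCP-2x the lowest. On the deposited values the highest stage was 1.4 times the lowest in Taichung65-4x and 6.68 times the lowest in Taichung65-2x. Its 4x over 2x ratio was 0.46 at PMA, 1.61 at MA and 4.27 at SCP, with 95% counting intervals of 0.423 to 0.5, 1.46 to 1.76 and 3.83 to 4.76. These intervals cover the counting error of the reads of 2 libraries and nothing else, since no group has a replicate.

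osa-MIR2275c-p3, from the opposite arm of a rice hairpin, had the same crossing of the ploidies at a lower level. It measured 92.4 at PMA, 122 at MA and 108 at SCP in Taichung65-4x, against 232, 75.0 and 24.4 at the same stages in Taichung65-2x. As deposited, the highest stage was 1.32 times the lowest in Taichung65-4x and 9.48 times the lowest in Taichung65-2x. Under the 3 other scalings SCP was the highest tetraploid stage. There osa-MIR2275c-p3 had log2 ratios of SCP over PMA of 1.30, 1.25 and 1.43 in Taichung65-4x. As a ratio of 4x over 2x, it stood at 0.399 (0.297 to 0.531) at PMA, 1.62 (1.21 to 2.15) at MA and 4.44 (2.89 to 6.8) at SCP. The SCP-2x value rests on 27.5 reads.

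zma-miR2275b-3p_1ss22AG, matched to a maize entry, was, as deposited, nearly level in the tetraploid and lower at each later stage in the diploid, though MA-2x and SCP-2x were close under the median ratio and SCP-2x was the higher of them under clean reads. It measured 801 at PMA, 935 at MA and 851 at SCP in Taichung65-4x, against 1711, 745 and 454 in Taichung65-2x. As deposited all 3 tetraploid libraries lay inside the diploid range, whereas under each of the 3 other scalings SCP-4x was above PMA-2x. The 4x over 2x ratio was 0.468 (0.424 to 0.517) at PMA, 1.26 (1.14 to 1.38) at MA and 1.87 (1.69 to 2.09) at SCP. A second form under a maize name, zma-miR2275b-3p_1ss10CT, which is no member, measured 145, 125 and 93.3 in Taichung65-4x, against 267, 138 and 74.6 in Taichung65-2x, and its sequence differs from the member by C10T and G22A.

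osa-miR2275a_1ss15AG was lower at each later stage in both ploidies. Its values were 156 at PMA, 61.6 at MA and 39.5 at SCP in Taichung65-4x, against 284, 77.4 and 20.4 in Taichung65-2x. On the deposited values the highest stage was 3.96 times the lowest in Taichung65-4x and 13.9 times the lowest in Taichung65-2x, so the drop was the steeper one in the diploid. Its 4x over 2x ratio was 0.55 (0.434 to 0.693) at PMA, 0.796 (0.569 to 1.11) at MA and 1.93 (1.17 to 3.35) at SCP, and the interval at MA includes 1.

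mes-miR2275, matched to a cassava entry, was listed for the diploid alone, at 17.5 at PMA, 7.55 at MA and 2.67 at SCP, which is 13, 8 and 3 reads. A miRNA enters a ploidy's table when it passes 10 at some stage, so its level in Taichung65-4x is taken as at most 10. Against that bound PMA-4x was at least 1.75-fold lower than PMA-2x, which is under the 2-fold limit, and no ratio is drawn at MA and SCP, where the diploid value is itself under 10. In the diploid it was 6.57 times as high at PMA as at SCP, with a counting interval of 1.8 to 35.9.

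osa-miR2275c_R-2, the only 21 nt member, was also the most abundant member and, as deposited, varied least. Under 3 other scalings it was over 2-fold higher at SCP than at PMA in both ploidies, as given with those scalings. It measured 4997 at PMA, 5280 at MA and 5553 at SCP in Taichung65-4x, against 5198, 5448 and 6667 in Taichung65-2x. It ranked 4, 2 and 1 among all listed miRNAs at PMA, MA and SCP of Taichung65-4x and 3, 3 and 2 in Taichung65-2x. As a ratio of 4x over 2x, it stood at 0.961 (0.919 to 1.01) at PMA, 0.969 (0.934 to 1.01) at MA and 0.833 (0.806 to 0.861) at SCP. It is the one member in both tables whose ratio did not pass from below 1 at PMA to above 1 at SCP, except under equal sums, where its log2 ratio was -0.05 at PMA and 0.06 at SCP.

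**Figure D1:**
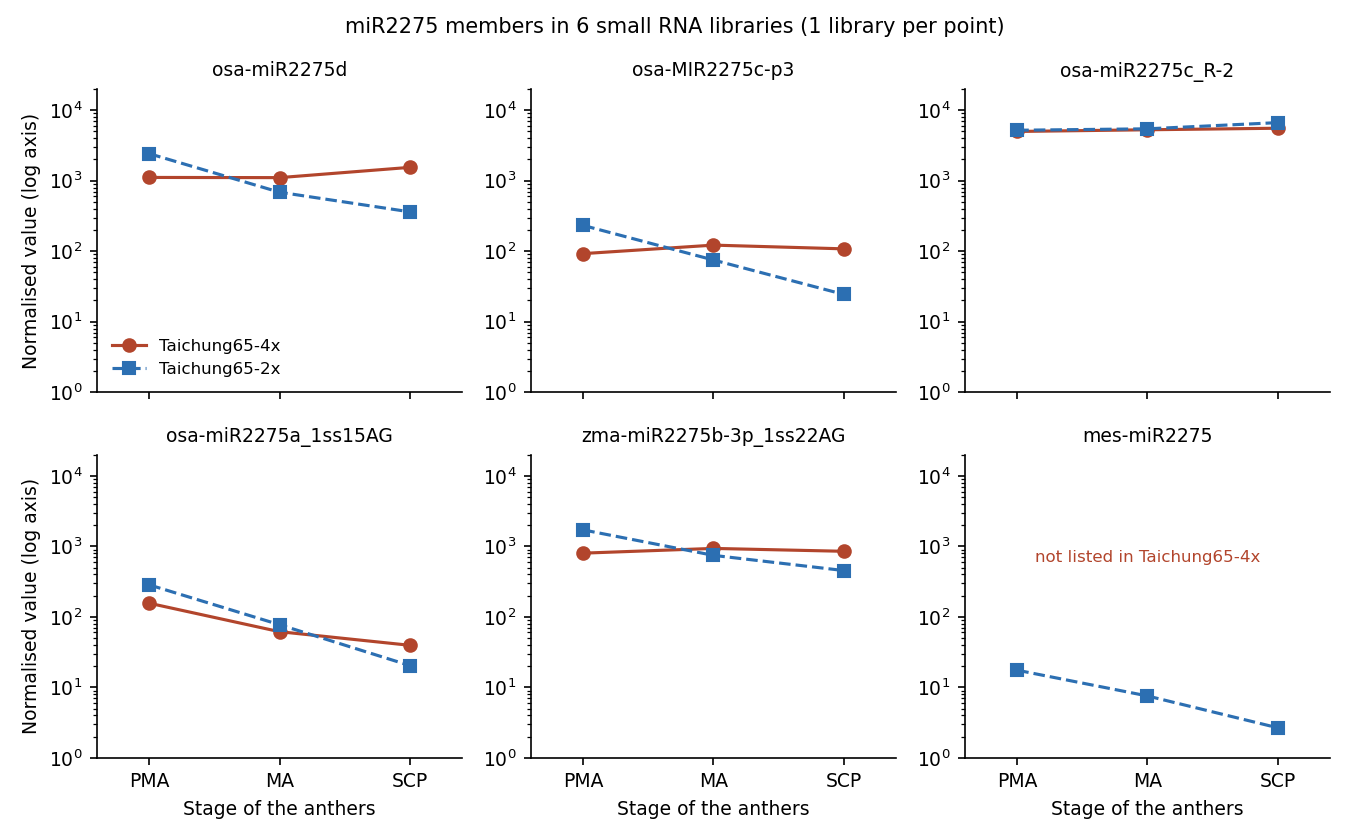
Normalised value of each member on a log axis at PMA, MA and SCP, with 1 library per point, Taichung65-4x as circles on solid lines and Taichung65-2x as squares on dashed lines. The lines cross between PMA and SCP for osa-miR2275d, osa-MIR2275c-p3, osa-miR2275a_1ss15AG and zma-miR2275b-3p_1ss22AG, while osa-miR2275c_R-2 lies between 4997 and 6667 in all 6 libraries.

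The members were then counted by the study's limits, a larger value over 10 and a fold over 2, without its chi-square or Fisher test. Here an unlisted miRNA was set at 10. The counts differ from those of the study, which also gives mes-miR2275 as lower in Taichung65-4x at PMA. At PMA, 3 of the 6 members were lower in Taichung65-4x and 0 higher, while 5.54% of all 397 miRNAs compared were lower and 5.54% higher. The 3 were osa-miR2275d, osa-MIR2275c-p3 and zma-miR2275b-3p_1ss22AG. At MA, none of the 5 members compared was called, 0 higher and 0 lower, beside 5.26% higher and 9.21% lower of all 380. At SCP, 2 of 5 were higher in Taichung65-4x, osa-miR2275d and osa-MIR2275c-p3, and 0 lower, beside 13.4% higher and 10.2% lower of all 382. The choice of members used these contrasts, and the counts are read no further. The median log2 ratio of the members was -0.98 at PMA, 0.33 at MA and 0.95 at SCP, where that of all miRNAs compared was 0.00, -0.18 and 0.02.

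**Figure D2:**
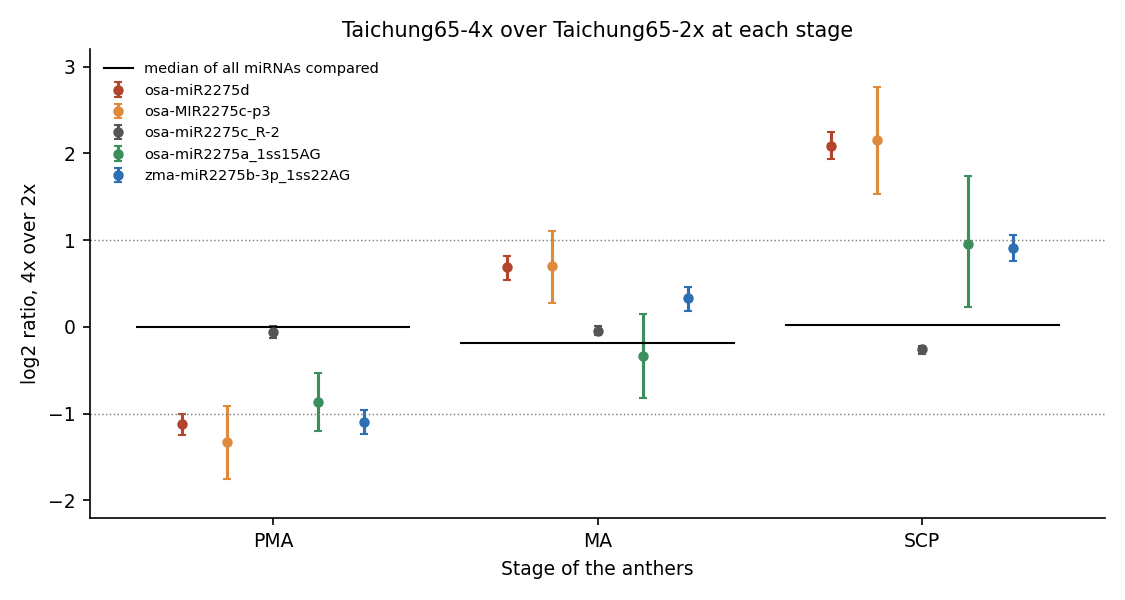
Log2 ratio of Taichung65-4x over Taichung65-2x for the 5 members in both tables at each stage, with 95% counting intervals as bars, the median of all miRNAs compared as a black line and the 2-fold limits dotted. The 22 nt members lie below 0 at PMA and above 0 at SCP, and osa-miR2275c_R-2 stays within 0.26 of 0.

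Between stages of Taichung65-4x, as deposited, 1 of 5 members was lower at MA than at PMA and 0 higher, beside 29.2% lower and 10.3% higher of all miRNAs compared. No member was called between SCP and MA of Taichung65-4x, 0 higher and 0 lower, beside 9.23% higher and 21.3% lower. Between SCP and PMA, 1 of 5 was lower and 0 higher, beside 46.1% lower and 15.4% higher. The single member in both counts was osa-miR2275a_1ss15AG. The tetraploid members thus other than osa-miR2275a_1ss15AG differed by less than 2-fold, in a table where 46.1% of miRNAs were lower at SCP than at PMA.

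In Taichung65-2x, as deposited, 5 of 6 members were lower at MA than at PMA and 0 higher, beside 22.2% lower and 5.54% higher of all. Between SCP and MA, 2 of 5 were lower, osa-MIR2275c-p3 and osa-miR2275a_1ss15AG, and 0 higher, beside 37.2% lower and 8.17% higher. Between SCP and PMA, 5 of 6 were lower and 0 higher, beside 51.2% lower and 12.9% higher. The member outside both counts of 5 was osa-miR2275c_R-2. For mes-miR2275 the MA over PMA ratio of 0.431 had an interval of 0.155 to 1.12, which includes 1.

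The stage counts depend on how the libraries are scaled, because the deposited table falls with stage. The 3 other scalings tried were equal sums of the listed values, the median ratio over miRNAs in both tables, and reads over the clean reads of a library. They raised every SCP over PMA ratio by 1.07, 1.02 and 1.20 on the log2 scale in Taichung65-4x, and by 0.75, 0.98 and 1.25 in Taichung65-2x. Under each of them 4 of the 5 tetraploid members were over 2-fold higher at SCP than at PMA, where as deposited 1 was lower and 0 higher. osa-miR2275d had a log2 ratio of SCP over PMA of 0.47 as deposited and of 1.54, 1.49 and 1.67 under the others in Taichung65-4x. In Taichung65-2x the same ratio was -2.74 as deposited and -1.99, -1.75 and -1.49 under the others. For osa-miR2275d, osa-MIR2275c-p3 and zma-miR2275b-3p_1ss22AG the tetraploid ratio was above 0 and the diploid ratio below 0 under all 4 scalings. osa-miR2275a_1ss15AG was below 0 in both ploidies under all 4, and osa-miR2275c_R-2 above 0 in both, at 0.15 as deposited and 1.22, 1.17 and 1.35 under the others in Taichung65-4x, against 0.36 as deposited and 1.11, 1.34 and 1.61 in Taichung65-2x.

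**Figure D3:**
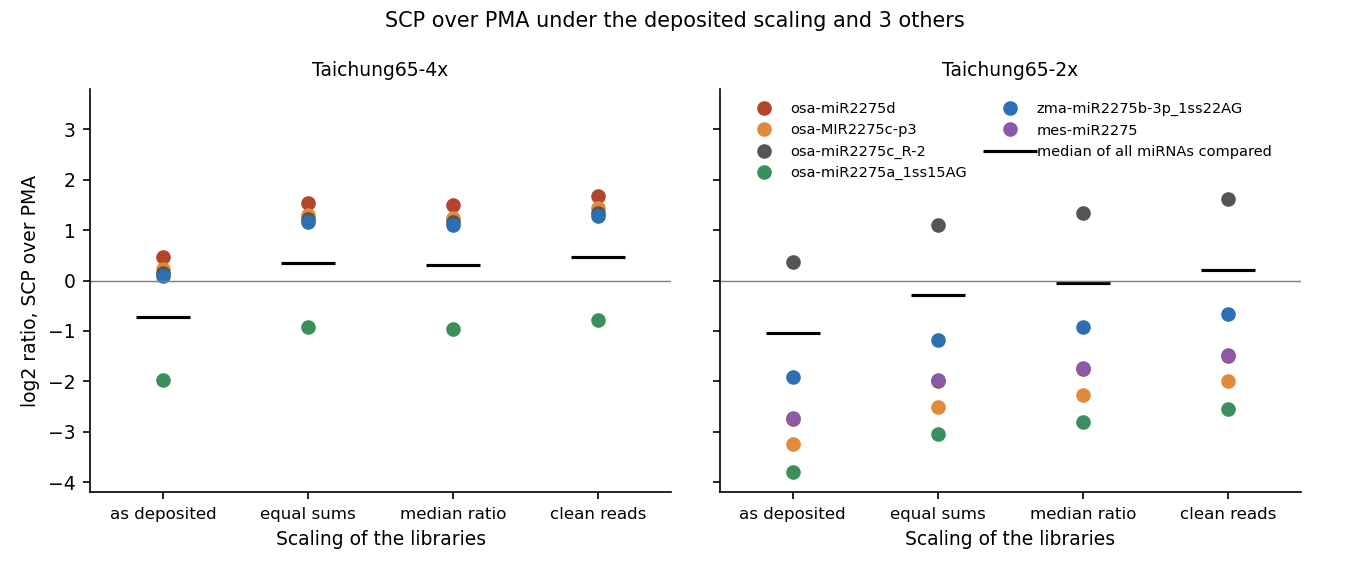
Log2 ratio of SCP over PMA for each member in Taichung65-4x, left, and Taichung65-2x, right, under the deposited scaling and 3 others, with the median of all miRNAs compared as a black bar. In Taichung65-4x the members other than osa-miR2275a_1ss15AG lie between 0.09 and 0.47 as deposited and between 1.11 and 1.67 under the others, and in Taichung65-2x osa-miR2275c_R-2 lies above 0 and the other members below it throughout.

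A factor that both libraries of a stage share cancels in the change of the ploidy ratio between stages. The 4x over 2x ratio at SCP divided by that at PMA was 11.1 for osa-MIR2275c-p3 (6.5 to 18.6), 9.27 for osa-miR2275d (8.07 to 10.6), 4 for zma-miR2275b-3p_1ss22AG (3.46 to 4.63) and 3.51 for osa-miR2275a_1ss15AG (2 to 6.4). It was 0.866 for osa-miR2275c_R-2 (0.819 to 0.916). On the log2 scale these are 3.48, 3.21, 2.00, 1.81 and -0.21. Among the 298 miRNAs listed for both ploidies whose higher library was over 10 at PMA and also at SCP, these changes ranged from -3.55 to 4.68 with a median of -0.25. osa-MIR2275c-p3 ranked 3, osa-miR2275d 8, zma-miR2275b-3p_1ss22AG 21 and osa-miR2275a_1ss15AG 23 from the highest, and osa-miR2275c_R-2 ranked 144. The members were called lower at PMA and higher at SCP in 2 cases, osa-miR2275d and osa-MIR2275c-p3, out of 6 such miRNAs in the tables. The reverse pattern was met by 2 miRNAs, neither of them in the family.

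**Figure D4:**
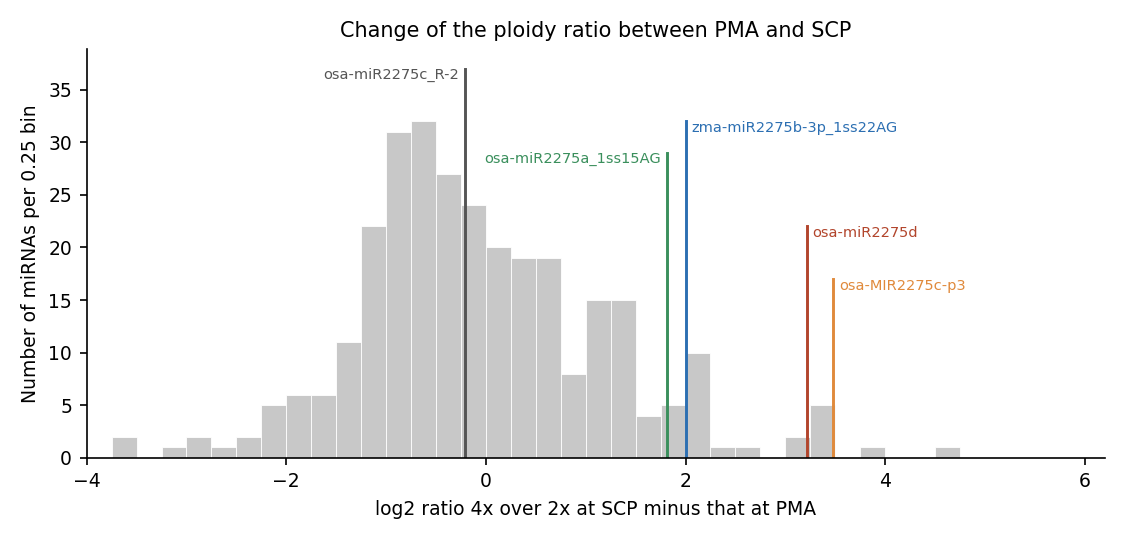
Histogram over 298 miRNAs of the log2 ratio 4x over 2x at SCP minus that at PMA, in bins of 0.25, with a line for each of the 5 members in both tables. The lines stand at 3.48, 3.21, 2.00 and 1.81 for the 22 nt members and at -0.21 for osa-miR2275c_R-2, where the median of all is -0.25.

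Ratios of 2 members inside a library do not depend on the scaling at all. osa-miR2275d over osa-MIR2275c-p3 was 12 at PMA, 9.07 at MA and 14.2 at SCP in Taichung65-4x, against 10.4, 9.16 and 14.8 in Taichung65-2x. The 4x ratio was 1.15 (0.855 to 1.57), 0.99 (0.736 to 1.35) and 0.962 (0.618 to 1.5) times the 2x ratio at PMA, MA and SCP, so all 3 intervals include 1. The SCP ratio was 1.18 (0.861 to 1.61) times the PMA ratio in Taichung65-4x and 1.42 (0.917 to 2.19) times it in Taichung65-2x. Both of these intervals include 1. Between MA and SCP of Taichung65-4x the proportion of these members, which differ by C1A, was not the same. In Taichung65-4x the ratio of SCP over MA was 1.4 (1.3 to 1.5) for osa-miR2275d and 0.89 (0.699 to 1.14) for osa-MIR2275c-p3. The authors' matching allowed a mismatch, and whether reads of one sequence were counted under the other was not tested.

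The products named as the arms of hairpin MIR2275c did not keep a proportion. Whether reads of osa-miR2275d were counted as osa-MIR2275c-p3 was not tested. osa-miR2275c_R-2 over osa-MIR2275c-p3 was 54.1 at PMA, 43.3 at MA and 51.2 at SCP in Taichung65-4x. In Taichung65-2x it was 22.4, 72.6 and 273. The SCP ratio was 0.947 times the PMA ratio in Taichung65-4x, with an interval of 0.695 to 1.28, and 12.2 times the PMA ratio in Taichung65-2x, with an interval of 7.96 to 18.5. The same arm ratio was thus steady in the tetraploid and was higher at each later stage of the diploid.

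The 3p and 5p b products under maize names also changed in proportion. Whether the same rice hairpin gives both was not tested. zma-miR2275b-5p_1ss12CG, a 21 nt 5p product and no member, measured 4403 at PMA, 2500 at MA and 1395 at SCP in Taichung65-4x, against 4562, 3745 and 2458 in Taichung65-2x. The 3p member zma-miR2275b-3p_1ss22AG over it stood at 0.182, 0.374 and 0.61 in Taichung65-4x, against 0.375, 0.199 and 0.185 in Taichung65-2x. The SCP ratio was 3.35 times the PMA ratio (2.98 to 3.77) in Taichung65-4x, against 0.492 times (0.438 to 0.553) in Taichung65-2x. zma-miR2275c-5p_2ss14CA15TC has the very sequence of zma-miR2275b-5p_1ss12CG and nearly the same values, 4402, 2502 and 1396 in Taichung65-4x against 4564, 3746 and 2458 in Taichung65-2x, so it is taken as the same molecule and counted once. Whether the reads of that sequence were split between these names was not tested. A split would make its level here too low and the 3p over 5p ratio too high.

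**Figure D5:**
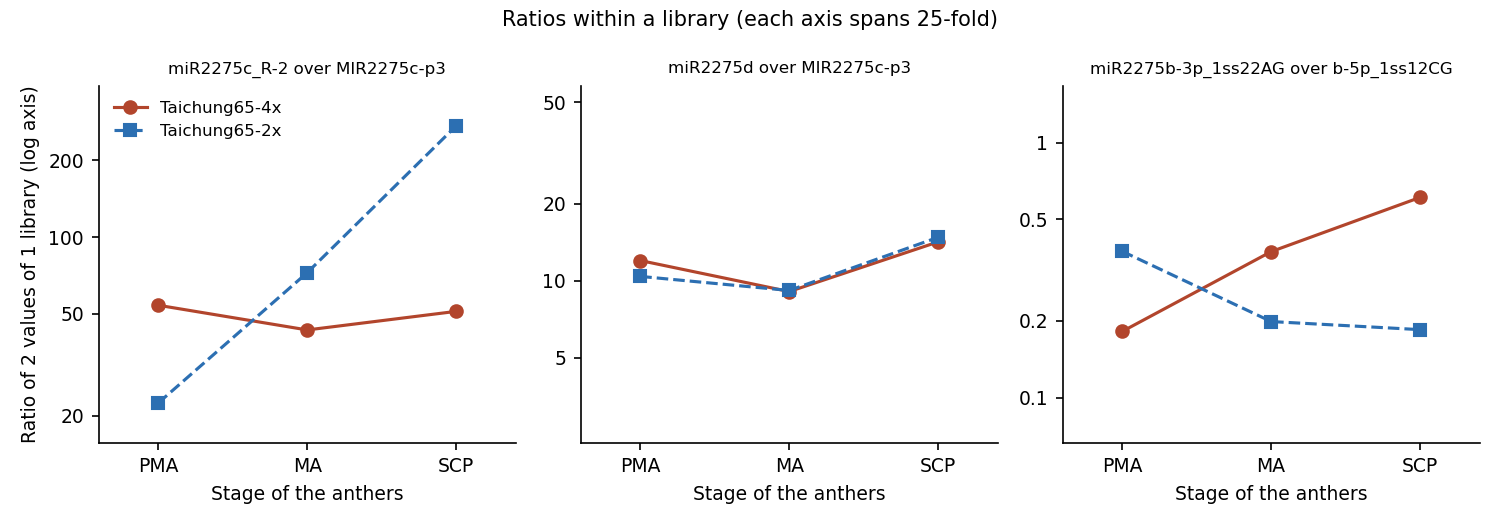
Ratio of 2 values of the same library at PMA, MA and SCP on log axes that each span 25-fold, Taichung65-4x as circles and Taichung65-2x as squares. The ratio of osa-miR2275c_R-2 to osa-MIR2275c-p3 reaches 273 at SCP-2x against 51.2 at SCP-4x, the ratio of osa-miR2275d to osa-MIR2275c-p3 stays between 9.07 and 14.8, and the b ratio of 3p to 5p diverges to 0.61 at SCP-4x and 0.185 at SCP-2x.

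Other pairs of 22 nt members also varied. osa-miR2275d over osa-miR2275a_1ss15AG was 7.12, 17.9 and 39.2 at PMA, MA and SCP of Taichung65-4x, and 8.51, 8.88 and 17.7 in Taichung65-2x. osa-miR2275d over zma-miR2275b-3p_1ss22AG was 1.39, 1.18 and 1.82 in Taichung65-4x, against 1.41, 0.923 and 0.797 in Taichung65-2x, so the rice form led at SCP of the tetraploid and the maize-named form at SCP of the diploid. zma-miR2275b-3p_1ss22AG over osa-miR2275a_1ss15AG was 5.13, 15.2 and 21.6 in Taichung65-4x, against 6.02, 9.63 and 22.2 in Taichung65-2x.

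As a share of the members' summed value, osa-miR2275c_R-2 took 69.8%, 70.4% and 68.6% at PMA, MA and SCP of Taichung65-4x, and 52.7%, 77.4% and 88.5% in Taichung65-2x. osa-miR2275d took 15.5%, 14.7% and 19.1% in Taichung65-4x, against 24.5%, 9.76% and 4.81% in Taichung65-2x. The share of osa-miR2275c_R-2 in the members' sum thus stayed within 68.6% to 70.4% over the tetraploid stages. In the diploid that share was higher at each later stage. The share of osa-miR2275d in Taichung65-4x was higher at SCP than at MA beyond counting error. These shares leave out another 21 nt product, zma-miR2275b-5p_1ss12CG, which measured 4403, 2500 and 1395 at PMA, MA and SCP of Taichung65-4x. At SCP the exact Clopper-Pearson 95% interval of the osa-miR2275d share was 18.3% to 19.9% in Taichung65-4x and 4.37% to 5.29% in Taichung65-2x. zma-miR2275b-3p_1ss22AG held 11.2%, 12.5% and 10.5% in Taichung65-4x, against 17.4%, 10.6% and 6.03% in Taichung65-2x. Each remaining member held under 3% of the members' sum in any library. osa-miR2275a_1ss15AG was at 2.18%, 0.821% and 0.488% in Taichung65-4x, against 2.88%, 1.1% and 0.271% in Taichung65-2x.

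The members summed to 7159, 7505 and 8097 at PMA, MA and SCP of Taichung65-4x, and to 9860, 7040 and 7530 in Taichung65-2x. They made up 5.53%, 8.64% and 13.1% of all listed signal in Taichung65-4x, against 7.59%, 6.6% and 9.72% in Taichung65-2x. osa-miR2275c_R-2 was the largest part of the sum in every library. Over the 5 members in both tables the 4x over 2x ratio of the sum was 0.727, 1.07 and 1.08 at PMA, MA and SCP, and without osa-miR2275c_R-2 it stood at 0.466, 1.4 and 2.96. All miR2275 names, with identical sequences once, summed to 11739, 10134 and 9588 in Taichung65-4x, against 14708, 10930 and 10065 in Taichung65-2x. As deposited, that family sum was thus lower at each later stage in both ploidies. As a share of listed signal it was 9.06%, 11.7% and 15.5% in Taichung65-4x, against 11.3%, 10.2% and 13% in Taichung65-2x.

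Of the remaining names, osa-MIR2275a-p5 and osa-MIR2275b-p5 share 1 sequence, the opposite arm of osa-miR2275a. osa-MIR2275a-p5 measured 21.7, 1.81 and 1.59 in Taichung65-4x, against 19.5, 7.08 and 1.33 in Taichung65-2x, so it was over 10 at PMA alone in both. osa-MIR2275b-p5 measured 19, 0.906 and 1.59 in Taichung65-4x, against 14.1, 8.02 and 1.33 in Taichung65-2x. zma-miR2275b-5p_R-3_1ss12CG, an 18 nt form, was listed for Taichung65-4x alone, at 10.2, 1.81 and 1.2.

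The profiles most like each member were found among 192 other miRNAs of both tables with at least 50 in their highest library, by the root mean square difference of log2(value + 1) centred on the mean of the 6 libraries. For osa-miR2275d the nearest were osa-miR1876 at 0.29, osa-miR1429-5p_R+3 at 0.36 and osa-miR1862d at 0.44, and the same 3 were nearest to osa-MIR2275c-p3, at 0.33, 0.40 and 0.49. Within the family these members lay 0.27 from each other. osa-miR1876 measured 80.2, 93.3 and 70.2 in Taichung65-4x, against 133, 41.5 and 25.8 in Taichung65-2x, the same crossing of the ploidies.

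zma-miR2275b-3p_1ss22AG was nearest to osa-miR1429-5p_R+3 at 0.27, osa-MIR5542-p3_1ss17AG at 0.30 and osa-miR1883a_R-5 at 0.31. osa-miR2275a_1ss15AG was nearest to 3 members of miR2118, osa-miR2118c at 0.20, osa-miR2118h at 0.23 and osa-miR2118a at 0.23, and osa-miR2118c measured 1126, 639 and 383 in Taichung65-4x, against 2393, 714 and 233 in Taichung65-2x. osa-miR2275c_R-2 was nearest to osa-MIR1851-p5 at 0.18, osa-miR390-5p at 0.20 and osa-miR167a-5p at 0.20. These distances describe 6 libraries that all miRNAs share, and with a pseudocount of 10 only 1 of the 3 nearest was kept for osa-miR2275a_1ss15AG and for zma-miR2275b-3p_1ss22AG.

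miR2118, the trigger of the 21 nt phasiRNAs, was lower at each later stage in both ploidies as deposited. Its most abundant member, osa-miR2118d, measured 8137, 3078 and 1767 at PMA, MA and SCP of Taichung65-4x, and 7447, 2873 and 964 in Taichung65-2x. Of its 31 names, 30 of 30 were over 2-fold lower at SCP than at PMA in Taichung65-4x and 31 of 31 in Taichung65-2x, with median log2 ratios of -2.14 and -2.48, beside 46.1% and 51.2% lower among all miRNAs compared, whose medians were -0.72 and -1.03. The selected miR2275 members had 1 of 5 and 5 of 6 lower, with medians of 0.15 and -2.73. Over all miR2275 names, selected or not, 6 of 11 were lower in Taichung65-4x and 8 of 11 in Taichung65-2x. The medians of all these names were -1.66 and -2.72, with identical sequences counted under each name. Between the ploidies 0 of 31 miR2118 names were higher and 3 lower at PMA, and 1 of 29 was higher and 2 lower at SCP, with medians of -0.30 and 0.11, beside 5.54% higher and 5.54% lower at PMA and 13.4% higher and 10.2% lower at SCP of all. Split by arm, the 3p names of miR2118 had medians of -0.72 at PMA and 0.53 at SCP. Its 5p names had medians of -0.11 and -0.33, so the 3p names changed sign as the 22 nt members did and the 5p names did not.

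The small RNA pathway has its own miRNA feedback, in miR162, which targets DICER-LIKE1, and miR168, which targets ARGONAUTE1. None of the 4 miR162 names was called between the ploidies at PMA or SCP and 1, osa-miR162b, was lower in Taichung65-4x at MA, where it measured 561 against 1140 in Taichung65-2x and 9.21% of all miRNAs were lower. osa-miR168a-5p measured 1348, 1796 and 1155 in Taichung65-4x, against 821, 1732 and 2327 in Taichung65-2x, so its ploidy ratio moved the opposite way to that of osa-miR2275d. It was called lower in Taichung65-4x at SCP alone, beside 10.2% lower of all miRNAs compared. The other miR168 name, osa-miR168a-3p_L-3, was called at no stage, with 4x over 2x ratios of 1.12, 0.724 and 0.947 at PMA, MA and SCP. Among the 22 nt miRNAs outside the family, 4 of 48 were higher and 6 lower in Taichung65-4x at PMA, and 3 of 41 higher and 2 lower at SCP, with medians of -0.28 and 0.16. Among the 24 nt miRNAs, 7 of 108 were higher and 9 lower at PMA, and 37 of 126 higher and 0 lower at SCP, with medians of -0.02 and 0.52. Of all miRNAs compared, 5.54% were higher and 5.54% lower at PMA, and 13.4% higher and 10.2% lower at SCP.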

How the data were processed

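Small RNA was sequenced from whole anthers, 1 library in each of 6 groups taken from the labels. The authors filtered single-end reads of 36 bp with the Illumina pipeline (Solexa 0.3) and ACGT101-miR, matched them by BLAST to miRBase hairpins with a mismatch and end variation allowed, and placed them on the rice genome. The sources used here name no genome build. The deposited signal is the copy number corrected by 1 factor for each library, which the authors derived by regressing the sequences that all samples share on their median, and the authors list a miRNA that passes 10 at a stage of that ploidy. A table's sequence is the read of highest mapped score of its cluster. The legend does not describe the class of the maize-named reads. mes-miR2275 belongs to reads not placed on the genome.

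Members and lists were chosen with earlier results of these data known. The value of 1 read was recovered as the largest step that made at least 70% of values whole at a tolerance of 0.01, and 72.3% to 76.1% were whole. A miRNA was compared where the larger value passed 10 and called where the fold passed 2. A listed 0 was set at 0.01 and an unlisted miRNA at 10. Counting intervals (95%, exact binomial, and exact conditional for ratios of ratios) used reads rounded to whole numbers, chosen after the values were seen because most members carry multiples of 0.5 read. The chi-square and Fisher tests of the study were not applied, since they would compare libraries and not conditions, and no p-value or SD is given. Named miRNAs are the members, every other miR2275 name, the 3 nearest profiles of each member, and up to 3 of the most abundant miR2118, miR162 and miR168 names. Others were named after their values were seen. Clean-read totals from the study served only as an alternative scaling. All 6 columns of values were used. Scripts, tested on simulated reads, used Python 3.11.15, numpy 2.4.6, pandas 2.3.3, scipy 1.17.1, matplotlib 3.10.9 and, for duplexes, ViennaRNA 2.7.2. Sequences are those of the deposited tables.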

Additional observations from a re-analysis of the deposited data

Results flagged for a closer look

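Of the members, 4 were set apart because their ploidy ratio lay on opposite sides of 1 at PMA and SCP, and with 1 library a group the differences were not tested. The log2 ratio of 4x over 2x at SCP minus that at PMA was 3.48 for osa-MIR2275c-p3, 3.21 for osa-miR2275d, 2.00 for zma-miR2275b-3p_1ss22AG and 1.81 for osa-miR2275a_1ss15AG, and each ratio was below 0 at PMA and above 0 at SCP. The log2 ratio of SCP over PMA was above 0 in Taichung65-4x and below 0 in Taichung65-2x for the first 3 of these, though not for osa-miR2275a_1ss15AG, which was below 0 in both, and the differences are the same 3.48, 3.21 and 2.00.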

How the results depend on the processing

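There is 1 library a group, so no library could be left out and no spread between replicates bears on any value. Of 72 counts of members called under other settings, 45 kept the reported numbers higher and lower, each within 1.5 times, and 27 did not. At PMA between ploidies, 5 members were called with a fold over 1.5 and 0 with a fold over 4. At MA between ploidies, 2 were called, both higher, under clean reads and with a fold over 1.5. At SCP between ploidies, 4 were higher under equal sums and with a fold over 1.5. In Taichung65-4x, MA against PMA gave 0 under equal sums, the median ratio, clean reads and a fold over 4. SCP against MA gave 1 higher under clean reads and 1 lower with a fold over 1.5. SCP against PMA gave 4 higher under each of the 3 scalings and 0 with a fold over 4. In Taichung65-2x, MA against PMA gave 3 lower under each of the 3 scalings and 0 with a fold over 4. SCP against MA gave 1 lower under the median ratio, 1 higher and 1 lower (2 in all) under clean reads, 4 lower with a fold over 1.5 and 0 with a fold over 4. SCP against PMA gave 6 under equal sums, 1 of them higher, and 5 under the median ratio and under clean reads, 1 of them higher and 4 lower. A scaling moves every miRNA of a pair of libraries by the same factor. Of 144 log2 ratios of members under the 3 other scalings, 49 stayed within the counting interval of the deposited ratio and 95 did not. The 3 scalings raised every log2 ratio of 4x over 2x by 0.30, 0.30 and 0.31 at MA. At SCP they raised it by 0.33, 0.05 and 0.04, and at PMA by 0.00, 0.01 and 0.09. For osa-miR2275d at MA it was 0.69 as deposited and 0.98, 0.98 and 1.00 under the others. The change of the ploidy ratio from PMA to SCP became 3.54 for osa-miR2275d, 2.33 for zma-miR2275b-3p_1ss22AG and 0.12 for osa-miR2275c_R-2 under equal sums. The other 17 of its 20 values stayed within their counting intervals. The 4x over 2x ratio of the sum without osa-miR2275c_R-2 was 0.466, 1.4 and 2.96 at PMA, MA and SCP, and that of the sum of all 5 members as a share of listed signal was 1.31 at MA and 1.35 at SCP. A share over members with whole reads in all 6 libraries could not be formed, since no member has them. Levels of a few reads, as for mes-miR2275, limit what can be seen.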

Other observations

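The ratio of 3p to 5p products was formed after the values were seen, over all miR2275 names with identical sequences once. Reads split between names of 1 sequence would make the 5p sum too low, which was not tested. The ratio was 0.245 at PMA, 0.302 at MA and 0.379 at SCP in Taichung65-4x, against 0.504, 0.188 and 0.103 in Taichung65-2x. The ratio of the summed 3p to 5p names of miR2118 was 9.03, 9.06 and 10.1 in Taichung65-4x, against 11.5, 6.57 and 5.05 in Taichung65-2x. In both families the ratio was higher at PMA-2x than at PMA-4x and higher at SCP-4x than at SCP-2x, though miR2118 is mostly 3p and miR2275 mostly 5p.

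The same ratio was taken for 32 pairs of arms of rice hairpins that reach at least 50 in a library with each arm. For MIR2275c the log2 ratio of 3p over 5p changed from PMA to SCP by 0.08 in Taichung65-4x and by -3.60 in Taichung65-2x, a difference of 3.68 that ranked 1 of the 32. The other 31 pairs had differences of -1.37 to 2.30 with a median of 0.16. Of 11 MIR2118 pairs, 10 had a difference above 0, and their median was 1.34, with a range of -0.96 to 2.30. Their sequences are alike and may share reads, so the pairs are not independent, and MIR2275c was picked for these values. No cause of these changes was tested, nor whether osa-MIR2275c-p3 holds reads of osa-miR2275d.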
